A study of Homo sapiens with 48 samples.

Results

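The 35 genes for cytosolic and mitochondrial aminoacyl-tRNA synthetases were followed through ribosome profiling and total RNA sequencing of SW480 cells, an established human colorectal cancer line that carries mutant APC. The genes were chosen by symbol, with earlier results of these data known. The cytosolic class holds 19 genes (symbols ending in 1, with FARSA and FARSB, and with QARS1 also known as QARS) and the mitochondrial class 16 (symbols ending in 2). All 35 were present among the 11145 genes with ribosome-protected fragments (RPFs) and among the 11947 genes with total RNA. The cells were pools of lentivirally transduced, selected cells with a DOX-inducible shRNA. There were 3 lines: shCTRL with a non-targeting shRNA, shEIF2B1 against the alpha subunit of eIF2B, and shEIF2B4 against its delta subunit. Each line received either DMSO alone (-DOX) or DOX at 1 µg/ml (+DOX) over 5 days, which gave 6 groups. Each group had 4 replicates run in separate weeks, so 24 lysates gave 48 libraries. All groups share the mutant APC background, and each eIF2B subunit was targeted by a single shRNA line.

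An aminoacyl-tRNA synthetase joins an amino acid to its tRNA and so supplies the charged tRNAs that ribosomes use. Cytosolic and mitochondrial translation draw on separate sets of nuclear-encoded synthetases, although GARS1 and KARS1 make both forms from one gene and have no mitochondrial partner here. eIF2B recharges eIF2 with GTP for initiation, and when eIF2B activity falls, translation of the transcription factor ATF4 rises, and many cytosolic synthetase genes are known ATF4 targets.

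The values are regularised log2 values deposited separately for RPFs and total RNA, with no read counts, so the depth behind each value is unknown. This transformation pulls the differences of weakly expressed genes towards 0. A response is how far a knockdown line moved on induction, less the move of shCTRL, in log2 units. Responses were fitted by limma over all genes of a table with the week as a block, and a gene counted as called where its p, adjusted by Benjamini-Hochberg, was under 0.1. Translational efficiency (TE) is given on the log2 scale, as the RPF value of a lysate less its total RNA value. As the tables were normalised separately, only changes in TE were compared. In these bulk lysates, fewer cells with a transcript and less of it per cell cannot be told apart.

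Some properties of the whole series touch the results. Of 6 epithelial markers, EPCAM, KRT8, KRT18 and CDH1 were measured, with CDH1 low at 4.26 ± 0.22 in RPFs (SD, n = 4, shCTRL -DOX), and KRT20 and VIL1 are not in the tables. Of 4 markers of other cells, VIM was measured. EIF2B1 fell after shEIF2B1 in RPFs (-0.53) and total RNA (-0.67). EIF2B4 was called after shEIF2B4 in total RNA (-0.49) and not in RPFs (-0.48). ATF4 RPFs rose after shEIF2B1 (1.02) and shEIF2B4 (0.76). The RPF library of shEIF2B4 -DOX in replicate 1 stood apart: 1638 genes differed by more than 1 log2 unit from the mean of the other 3 libraries of its group, against 0 to 393 in the other 23 RPF libraries. The member calls and class medians of RPFs and TE after shEIF2B4 are also given without that library, a choice made after the data were seen. RPF libraries further differed along the GC content at the third codon position (GC3). The correlation across 10847 genes between GC3 and a library's deviation from the gene mean ran from -0.73 to 0.76 over RPF libraries. In total RNA, across 10548 genes, it ran from -0.40 to 0.59. Values with a linear GC3 trend removed from each library, also added after the data were seen, are given where they change a result.

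Cytosolic genes were mostly translated at higher levels than mitochondrial genes in uninduced shCTRL cells. Levels per length could be set for 33 genes, 18 cytosolic and 15 mitochondrial, with lengths from an earlier annotation than that of the deposited values. The log2 RPF level per kb of coding sequence had a median of 8.49 over cytosolic and 6.82 over mitochondrial genes. MARS1, the methionyl enzyme, was highest at 9.87 ± 0.094 (SD, n = 4), followed by SARS1, the seryl enzyme, at 9.76 ± 0.098, and these neighbours differed by about the spread between weeks. The lowest cytosolic gene was LARS1, the leucyl enzyme, at 6.46 ± 0.32. In the mitochondrial class the tyrosyl enzyme YARS2 was highest at 8.55 ± 0.21 and the prolyl enzyme PARS2 lowest at 5.12 ± 0.14. In all, 9 of 18 cytosolic genes lay above every mitochondrial gene, and 9 of 15 mitochondrial genes lay above LARS1. In total RNA per kb of transcript the medians were 7.72 and 6.03, with 3 cytosolic genes above the highest mitochondrial gene, RARS2.

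**Figure D1:**
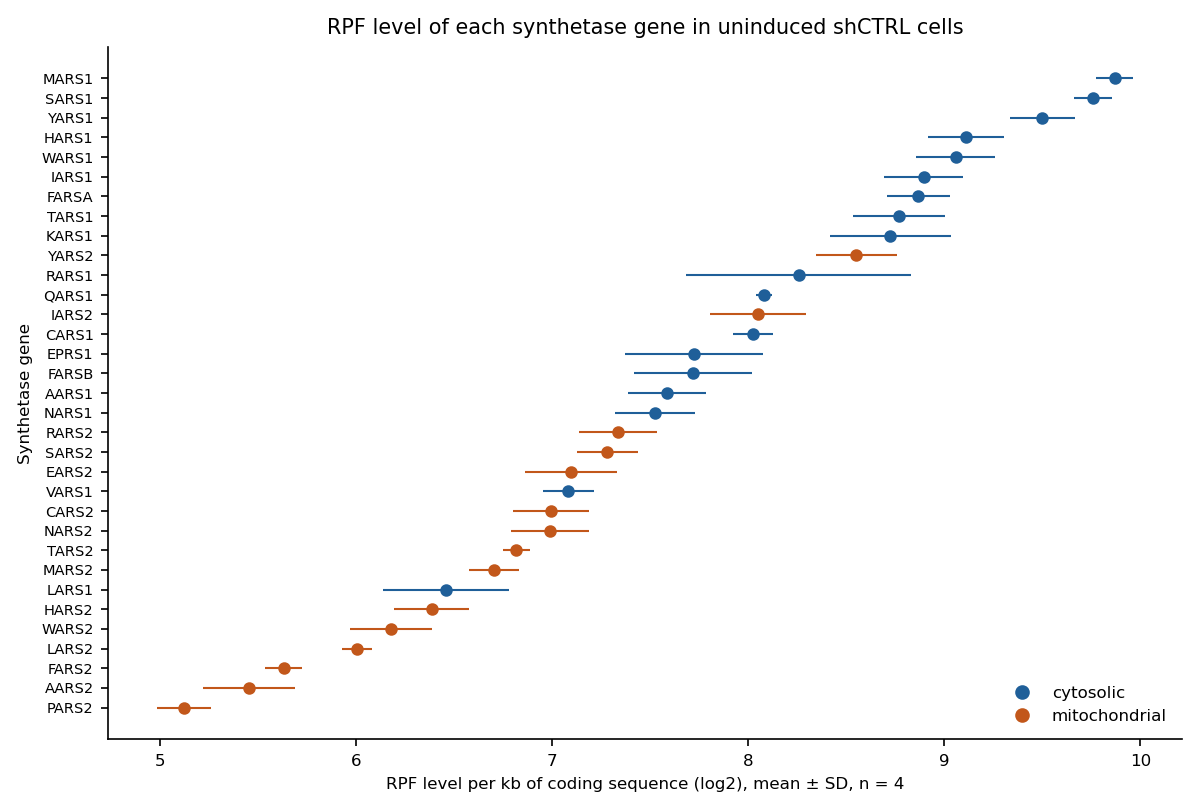
Mean log2 RPF level per kb of coding sequence (x axis, bars SD, n = 4 weeks) for 33 synthetase genes (y axis) in uninduced shCTRL cells, cytosolic in blue and mitochondrial in orange. The upper end holds 9 cytosolic genes, from MARS1 at 9.87 downwards, before the highest mitochondrial gene, YARS2, at 8.55.

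In total RNA, the calls after either knockdown were rises of cytosolic genes, with 1 mitochondrial fall. After shEIF2B1, 5 of 19 cytosolic genes rose (WARS1, GARS1, SARS1, IARS1 and MARS1), where 2.34% of all genes tested were called higher. No member was called lower by limma, where 1.13% of all genes were, and 10 of 35 members had an unadjusted p under 0.05 in either direction. After shEIF2B4, 5 of 19 rose (WARS1, GARS1, IARS1, TARS1 and SARS1), against 3.78% of all genes, and the mitochondrial threonyl enzyme TARS2 was called lower, against 1.62% of all genes. The median response of the cytosolic class was 0.11 after shEIF2B1 and 0.23 after shEIF2B4, that of the mitochondrial class -0.17 and -0.017, and that of all genes -0.0038 and 0.0018. Of the mitochondrial genes, 13 of 16 had a response below 0 after shEIF2B1 and 10 of 16 after shEIF2B4.

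WARS1 encodes the cytosolic tryptophanyl enzyme, on chromosome 14 of GRCh38 from 100333788 to 100376805, minus strand. Its total RNA in replicates 1 to 4 was 9.41, 9.44, 9.50 and 9.33 in shCTRL -DOX, and 9.48, 9.67, 9.92 and 9.64 in shCTRL +DOX. It was 9.31, 9.61, 9.50 and 9.41 in shEIF2B1 -DOX, and 10.34, 10.60, 10.76 and 10.52 in shEIF2B1 +DOX. In shEIF2B4 it was 9.26, 9.44, 9.49 and 9.21 without DOX, and 10.53, 10.54, 10.69 and 10.59 with DOX. All 8 induced knockdown libraries lay above all 16 others, with no overlap. Under shEIF2B1 its response was 0.84 ± 0.11 (SE, adjusted p = 0.000119 by limma), and under shEIF2B4 0.97 ± 0.096 (SE, adjusted p = 4.3e-06 by limma), higher in 4 of 4 weeks for each. Both calls held under all 13 alternative fits run on each.

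GARS1 encodes the glycyl enzyme of both compartments. Its total RNA was 10.40, 10.34, 10.33 and 10.07 in shCTRL -DOX, and 10.42, 10.17, 10.98 and 10.60 in shCTRL +DOX. It was 10.19, 10.40, 10.06 and 10.20 in shEIF2B1 -DOX against 11.07, 10.99, 11.43 and 11.03 in shEIF2B1 +DOX. It was 9.96, 10.35, 10.17 and 9.85 in shEIF2B4 -DOX against 10.92, 10.98, 11.03 and 11.17 in shEIF2B4 +DOX. Each knockdown line separated completely on induction, but replicate 3 of induced shCTRL reached the lower end of the induced knockdown libraries. Under shEIF2B1 its response was 0.66 ± 0.18 (SE, adjusted p = 0.069 by limma), and under shEIF2B4 0.69 ± 0.18 (SE, adjusted p = 0.0437 by limma), higher in 4 of 4 weeks. Without replicate 1 or 4, neither response was past the threshold.

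SARS1 encodes the cytosolic seryl enzyme, on chromosome 1 from 109213918 to 109238169, plus strand. Its total RNA was 9.42, 9.45, 9.29 and 9.26 in shCTRL -DOX, and 9.55, 9.50, 9.72 and 9.68 in shCTRL +DOX. In shEIF2B1 it went from 9.34, 9.67, 9.27 and 9.41 to 10.04, 10.51, 10.31 and 9.90, and in shEIF2B4 from 9.28, 9.47, 9.57 and 9.11 to 10.03, 10.09, 9.94 and 10.09. The induced knockdown libraries again lay above all others. With shCTRL subtracted, SARS1 rose by 0.51 ± 0.15 under shEIF2B1 (SE, adjusted p = 0.0805 by limma, 4 of 4 weeks) and by 0.42 ± 0.12 under shEIF2B4 (SE, adjusted p = 0.0763 by limma, 3 of 4 weeks). The first call was lost when any 1 week was left out, and the second held only without replicate 3.

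The isoleucyl enzyme gene IARS1 rose by 0.49 and 0.65 in total RNA after shEIF2B1 and shEIF2B4 (limma adjusted p = 0.0757 and 0.00143), and the second call held with each week left out, while the first held only without replicate 2. MARS1 rose by 0.45 under shEIF2B1 (adjusted p = 0.061 by limma) and had a response of 0.25 after shEIF2B4 that was not called. Its call held only without replicate 2. The threonyl enzyme gene TARS1 rose by 0.42 after shEIF2B4 (limma adjusted p = 0.0341), a call lost without replicate 2 or 4, and its response to shEIF2B1, 0.10, was not called. Its mitochondrial counterpart TARS2 fell by 0.38 after shEIF2B4 (limma adjusted p = 0.0643, 4 of 4 weeks), a call lost with any 1 week left out. Its response to shEIF2B1 was -0.23. The cytosolic genes that were not called ran from RARS1 at -0.24 to CARS1 at 0.33 after shEIF2B1, and from QARS1 at -0.18 to CARS1 at 0.41 after shEIF2B4. The mitochondrial genes that were not called ran from EARS2 at -0.33 to VARS2 at 0.17, and from EARS2 at -0.42 to RARS2 at 0.11.

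**Figure D2:**
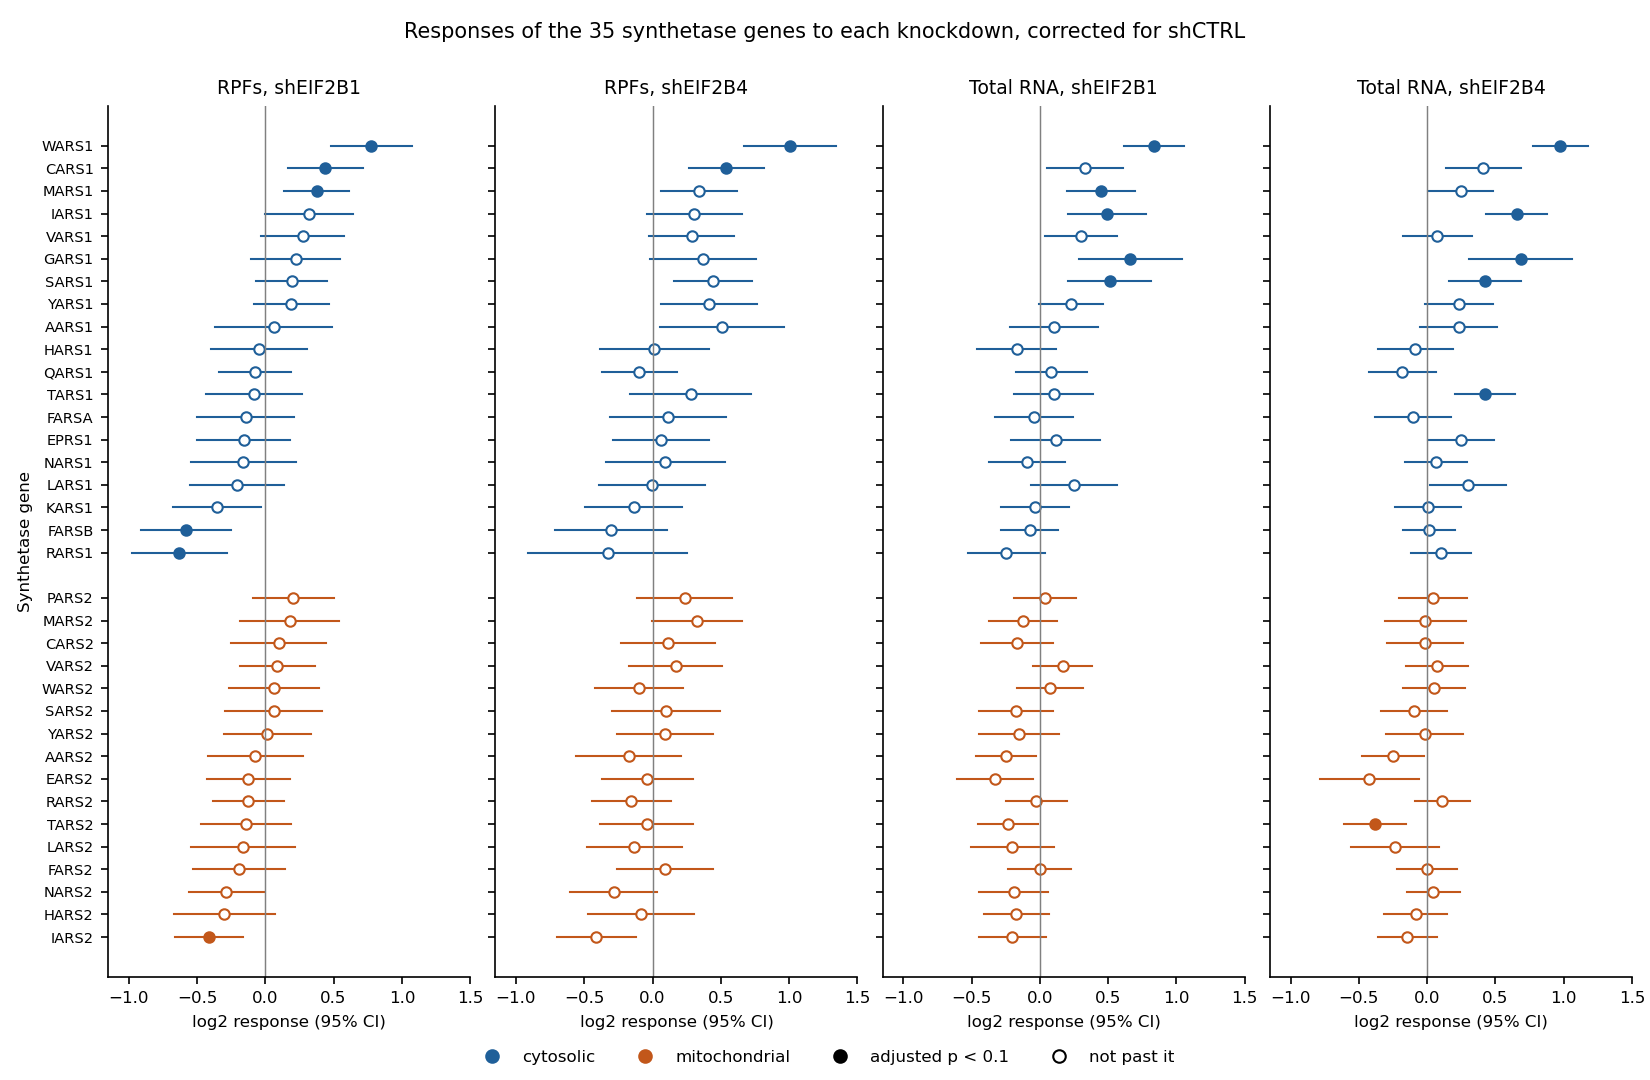
Log2 response (x axis, points, with 95% confidence intervals from limma) of each of the 35 synthetase genes (y axis) in RPFs and total RNA, for each knockdown, cytosolic in blue, mitochondrial in orange, with filled points for an adjusted p under 0.1. WARS1 is the highest in all 4 panels, between 0.78 and 1.00, and the mitochondrial points in total RNA lie between -0.42 and 0.17.

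Promoters are shown for the cytosolic genes because 5 of 19 were called higher in total RNA after each knockdown, and because ATF4 with a C/EBP partner is known to bind an element written TGATGNAAN. RefSeq promoter windows on GRCh38.p14, from 250 bases before to 50 bases after the start, were found for 30 of the 35 genes, and were searched for these letters on both strands. A match was present in 7 of 16 cytosolic genes and in 1 of 14 mitochondrial genes, against 4.45% of 27305 genes and 3.61% of 35116 windows. The windows are shown 5′ to 3′ on the strand of the gene, with the match in capitals, as written where it lies on this strand and as its reverse complement where it lies on the other.
TARS1 (chr5:33440956-33440984, plus strand): gcgcctttcgATTGCATCAgctggtccag
GARS1 (chr7:30594834-30594862, plus strand): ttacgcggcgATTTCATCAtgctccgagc
IARS1 (chr9:92293693-92293721, minus strand): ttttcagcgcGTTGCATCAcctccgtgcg
CARS1 (chr11:3057408-3057436, minus strand): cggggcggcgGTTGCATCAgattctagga
MARS1 (chr12:57488053-57488081, plus strand): gccggttccgGTTGCATCAgcgagggatt
AARS1 (chr16:70289676-70289704, minus strand): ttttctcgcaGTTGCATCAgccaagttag
NARS1 (chr18:57621804-57621832, minus strand): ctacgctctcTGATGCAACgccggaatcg
YARS2 (chr12:32756076-32756104, minus strand): tccacactgcTGATGGAAAaattaagttt
The matches of TARS1, IARS1, CARS1 and MARS1 lie within 14 bases of the start, and those of AARS1 and YARS2 begin at -188 and -197 from it. Of these genes, GARS1, IARS1, MARS1 and TARS1 were called in total RNA after at least 1 knockdown, while CARS1, AARS1, NARS1 and YARS2 were not. The windows of WARS1 and SARS1 hold no match, and AARS2, LARS1, VARS1, VARS2 and YARS1 had no window.

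In RPFs, shEIF2B1 gave rises and falls among cytosolic genes in nearly equal numbers. WARS1, CARS1 (the cysteinyl enzyme) and MARS1 rose, 3 of 19 cytosolic genes and 3 of 35 members, where 12.0% of all genes were called higher. RARS1 (the arginyl enzyme), FARSB (the beta subunit of the phenylalanyl enzyme) and the mitochondrial isoleucyl enzyme gene IARS2 fell. The falls were 2 of 19 cytosolic genes and 3 of 35 members, where 15.3% of all genes were called lower. These shares were near or below those of all genes. After shEIF2B4, WARS1 and CARS1 rose, 2 of 19 against 1.88% of all genes, and no member was called lower by limma, against 0.870% of all genes (7 of 35 had an unadjusted p under 0.05 in either direction). The median responses were -0.049 (cytosolic) and -0.099 (mitochondrial) after shEIF2B1, where that of all genes was -0.011. After shEIF2B4 they were 0.28 and -0.040, where that of all genes was -0.017. Without the shEIF2B4 library that stood apart these medians were 0.11 and -0.024, and the number of members called went from 2 to 7. WARS1, CARS1 and SARS1 (0.94, 0.53 and 0.36) were then higher, against 7.91% of all genes. RARS1, FARSB, IARS2 and NARS2 (-0.60, -0.50, -0.47 and -0.37) were lower, against 10.0% of all genes.

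WARS1 RPFs were 9.71, 9.74, 9.34 and 9.43 in shCTRL -DOX, and 9.83, 9.87, 9.84 and 9.86 in shCTRL +DOX. They were 9.61, 10.04, 9.62 and 9.70 in shEIF2B1 -DOX against 10.70, 10.74, 10.89 and 10.92 in shEIF2B1 +DOX. They were 9.29, 9.76, 9.43 and 9.61 in shEIF2B4 -DOX against 10.58, 10.85, 10.86 and 10.98 in shEIF2B4 +DOX. As in total RNA, the 8 induced knockdown libraries lay above the 16 others. Under shEIF2B1 its response was 0.78 ± 0.14 (SE, adjusted p = 0.00164 by limma), and under shEIF2B4 1.00 ± 0.16 (SE, adjusted p = 0.00213 by limma), in 4 of 4 weeks, and was called with any week left out. CARS1 rose by 0.44 and 0.54 (limma adjusted p = 0.0267 and 0.0484), and MARS1 by 0.38 after shEIF2B1 (limma adjusted p = 0.0283). CARS1 lost the first call without replicate 4 and the second without replicate 2, 3 or 4. MARS1 kept its call only without replicate 1 among the fits with 1 week left out.

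RARS1 lies on chromosome 5 from 168486445 to 168519299, plus strand. Its RPFs were 9.27, 10.20, 9.31 and 10.13 in shEIF2B1 -DOX and 8.64, 9.34, 8.91 and 9.42 in shEIF2B1 +DOX. In shCTRL they were 8.60, 9.59, 8.94 and 9.84 without DOX and 9.07, 9.17, 8.89 and 9.75 with DOX. In shEIF2B4 they were 7.99, 9.68, 9.71 and 9.88 without DOX and 8.22, 9.15, 8.98 and 9.53 with DOX. The groups overlapped, since replicates 2 and 4 lay above replicates 1 and 3 in most groups, so that the fall after shEIF2B1 shows within weeks. Under shEIF2B1 its response was -0.63 ± 0.17 (SE, adjusted p = 0.0139 by limma, lower in 4 of 4 weeks), and under shEIF2B4 -0.33 ± 0.28 (SE, adjusted p = 0.586 by limma). Without replicate 1 the call after shEIF2B1 was lost.

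FARSB lies on chromosome 2 from 222570536 to 222656337, minus strand. Its RPFs went from 8.51, 9.35, 8.60 and 9.34 to 8.25, 8.50, 8.26 and 8.98 in shEIF2B1. In shCTRL they went from 8.29, 8.58, 8.34 and 8.95 to 8.61, 8.48, 8.55 and 9.03, and in shEIF2B4 from 7.99, 8.96, 8.87 and 9.14 to 8.33, 8.42, 8.55 and 8.94. Groups overlapped here as well, with replicate 4 the highest or level with the highest library in each group. FARSB fell by 0.58 after shEIF2B1 (standard error 0.16, limma adjusted p = 0.0166, 4 of 4 weeks), a call kept with any week left out. Its partner subunit FARSA had a response of -0.14 that was not called.

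IARS2 lies on chromosome 1 from 220094102 to 220148041, plus strand. Its RPFs went from 9.77, 10.26, 9.78 and 10.08 to 9.52, 10.04, 9.52 and 9.82 in shEIF2B1, and from 9.50, 9.86, 9.39 and 9.86 to 9.55, 9.92, 9.81 and 10.00 in shCTRL. In shEIF2B4 they went from 9.36, 9.97, 9.85 and 9.95 to 9.25, 9.73, 9.45 and 9.74. It was lower after induction in every week of both knockdown lines and higher in every week of shCTRL. Under shEIF2B1 its response was -0.41 ± 0.12 (SE, adjusted p = 0.0215 by limma), and under shEIF2B4 -0.41 ± 0.14 (SE, adjusted p = 0.158 by limma), in 4 of 4 weeks for each. The first call was lost without replicate 3 or 4. The total RNA responses of RARS1, FARSB and IARS2 to shEIF2B1 were -0.24, -0.074 and -0.20, none of them called. GARS1 and SARS1, which rose in total RNA, were not called in RPFs. The RPF response of GARS1 was 0.22 to shEIF2B1 and 0.37 to shEIF2B4, and that of SARS1 0.19 and 0.44.

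Cytosolic members not called in RPFs ran from KARS1, the lysyl enzyme, at -0.36 to IARS1 at 0.32 after shEIF2B1, and from RARS1 at -0.33 to the alanyl enzyme gene AARS1 at 0.51 after shEIF2B4. Mitochondrial members not called ran from HARS2 at -0.30 to PARS2 at 0.21, and from IARS2 at -0.41 to MARS2 at 0.32. HARS1 and HARS2, the histidyl enzymes, are similar in sequence and overlap at their 5′ ends on chromosome 5, so reads could be divided between them. Over RPFs and total RNA and both knockdowns, 11 of 35 genes were called at least once, 9 cytosolic and 2 mitochondrial, and WARS1 was called in all 4 comparisons. Of all genes, 27.3% were called in RPFs after shEIF2B1 alone and 2.75% after shEIF2B4. In total RNA 3.47% and 5.4% were called. The share of all genes called at least once was not taken, so the pooled count is not read as particular to the members. The direct difference between the 2 knockdown responses was called for no member in RPFs or total RNA by limma. This compares with 0.00897% of all genes in RPFs, and in total RNA with 0.0586% called higher under shEIF2B1 and 0.0419% lower, and 0 and 4 members had an unadjusted p under 0.05. Both responses share the shCTRL libraries. The largest differences were AARS1 at -0.45 in RPFs and RARS1 at -0.35 in total RNA.

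**Figure D3:**
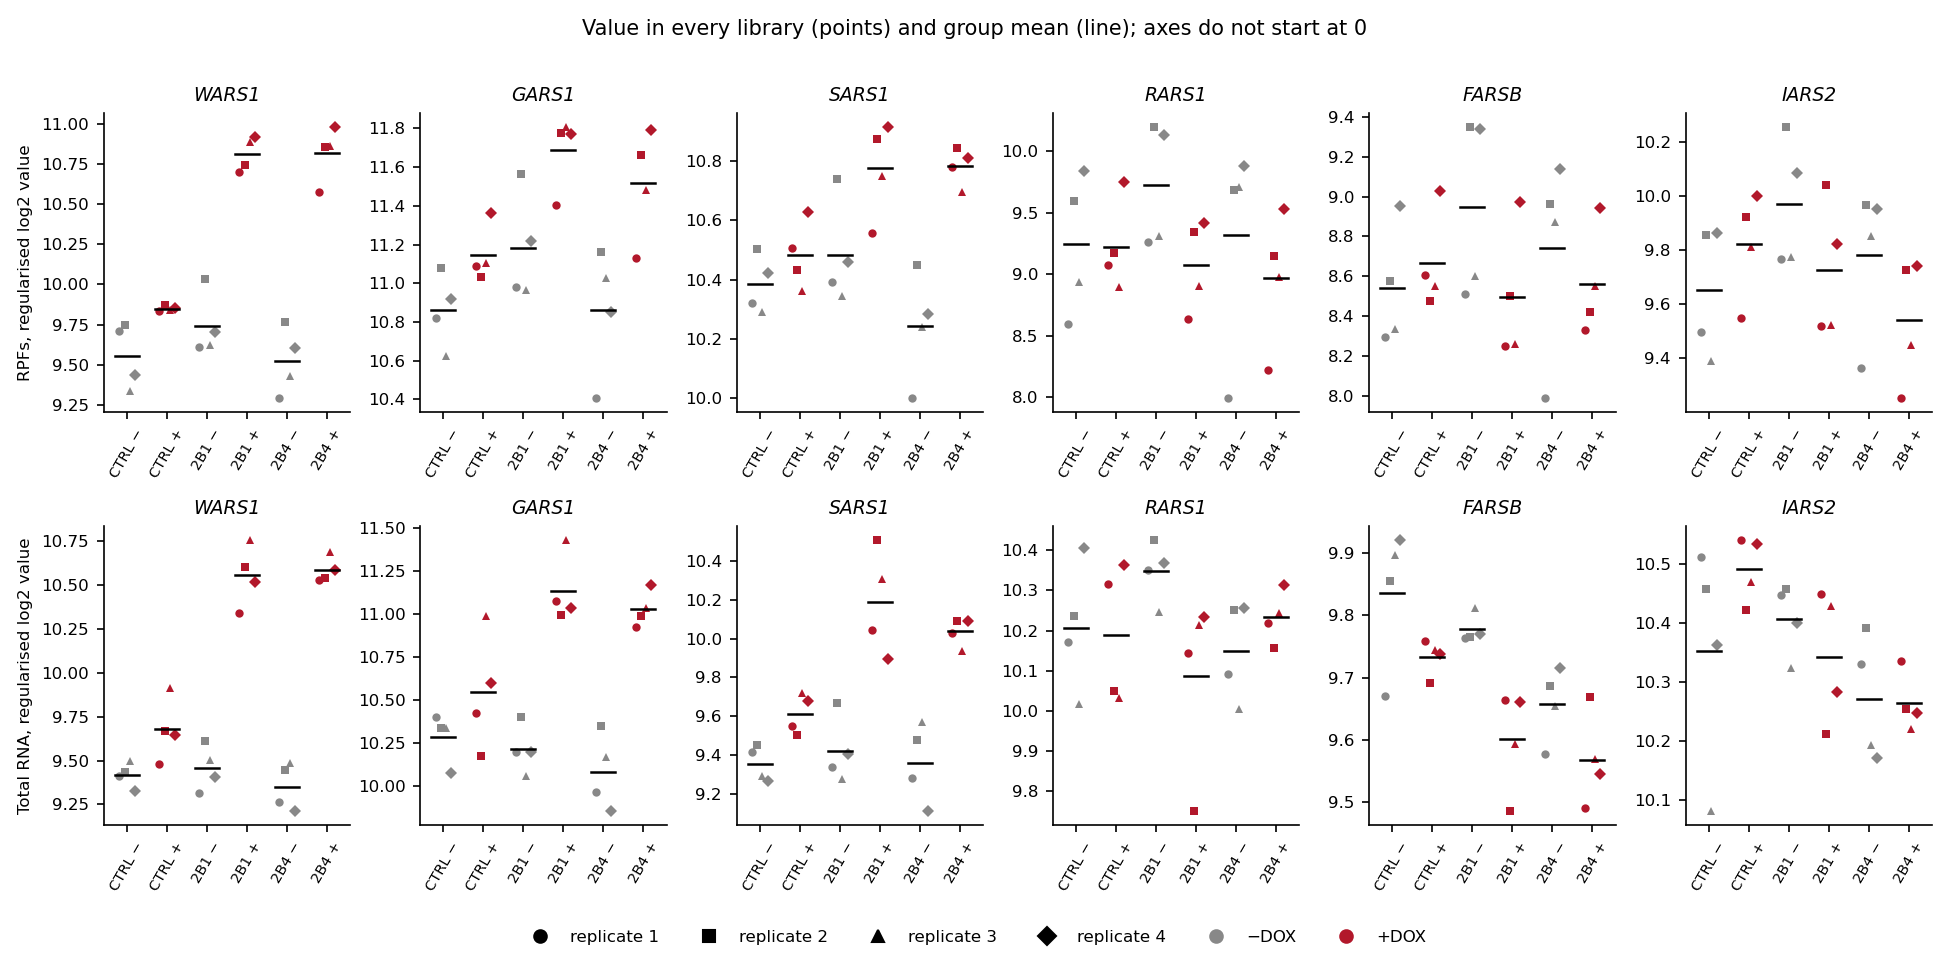
Regularised log2 value (y axis) of 6 synthetase genes in every library of the 6 groups (x axis, CTRL, 2B1 and 2B4 for the lines, - and + for DOX), RPFs above and total RNA below, with symbols for the 4 replicates, grey for -DOX, red for +DOX and lines for the group means. WARS1 separates the induced knockdown libraries from all others in both rows, while RARS1 and FARSB RPFs shift from week to week within each group.

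In log2 TE, the calls after shEIF2B1 were falls of FARSB (-0.51, standard error 0.17, limma adjusted p = 0.0999) and LARS1 (-0.46, standard error 0.14, limma adjusted p = 0.0779), each in 4 of 4 weeks. This is 2 of 35 members, where 4.13% of all genes were called lower. GARS1 had a TE response of -0.44 that was not called. FARSB lay at the threshold, and both calls held only without replicate 2 when 1 week was left out. Over the cytosolic class the median TE response was -0.16, with 17 of 19 below 0, and over the mitochondrial class 0.065, with 7 of 16 below 0, where the median of all genes was -0.016. After shEIF2B4 no member was called by limma, where 0.0923% of all genes were (3 members had an unadjusted p under 0.05), and the medians were 0.027 and 0.099. Without the library that stood apart they were -0.037 and 0.11, and 5 members were called, where 21.1% of all genes were. RARS1, FARSB, NARS2 and IARS1 were lower (-0.67, -0.50, -0.43 and -0.39) and EARS2 higher (0.48). WARS1 was not called in TE, with responses of -0.061 and 0.028 and 95% intervals from -0.35 to 0.23 and from -0.31 to 0.37.

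As a summary of the classes, the mean of the cytosolic genes minus the mean of the mitochondrial genes was taken in each library. Its level depends on gene lengths, so only its changes were read. In total RNA it rose on induction in every week of all 3 lines. In replicates 1 to 4 of shEIF2B1 it went from 1.88, 1.93, 1.87 and 1.80 to 2.23, 2.34, 2.49 and 2.27. In shEIF2B4 it went from 1.81, 1.83, 1.85 and 1.74 to 2.19, 2.31, 2.31 and 2.32, and in shCTRL from 1.89, 1.88, 1.86 and 1.77 to 1.91, 1.99, 2.10 and 1.97. The induced knockdown libraries lay above all others, and the shCTRL change was 0.14 ± 0.099 (SD, n = 4). With the shCTRL change subtracted week by week, the class difference rose by 0.32 ± 0.042 (SD, n = 4) after shEIF2B1 and by 0.33 ± 0.077 (SD, n = 4) after shEIF2B4. In RPFs it was 0.0905 ± 0.0656 and 0.22 ± 0.11 (SD, n = 4 each), above 0 in 4 of 4 weeks for both, after a shCTRL change of 0.18 ± 0.068. In TE it was -0.23 ± 0.080 and -0.11 ± 0.077 (SD, n = 4 each), below 0 in every week. Without replicate 1 in any line, the values after shEIF2B4 were 0.18 in RPFs and -0.14 in TE. No test was run on these class values. With the median of member levels taken in each library instead, the RPF value after shEIF2B4 was -0.046 and the TE value 0.034. Such a median follows the genes at the middle level of each class. In the median responses of members given above, the cytosolic class was higher in RPFs and lower in TE after shEIF2B4, as with the mean.

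**Figure D4:**
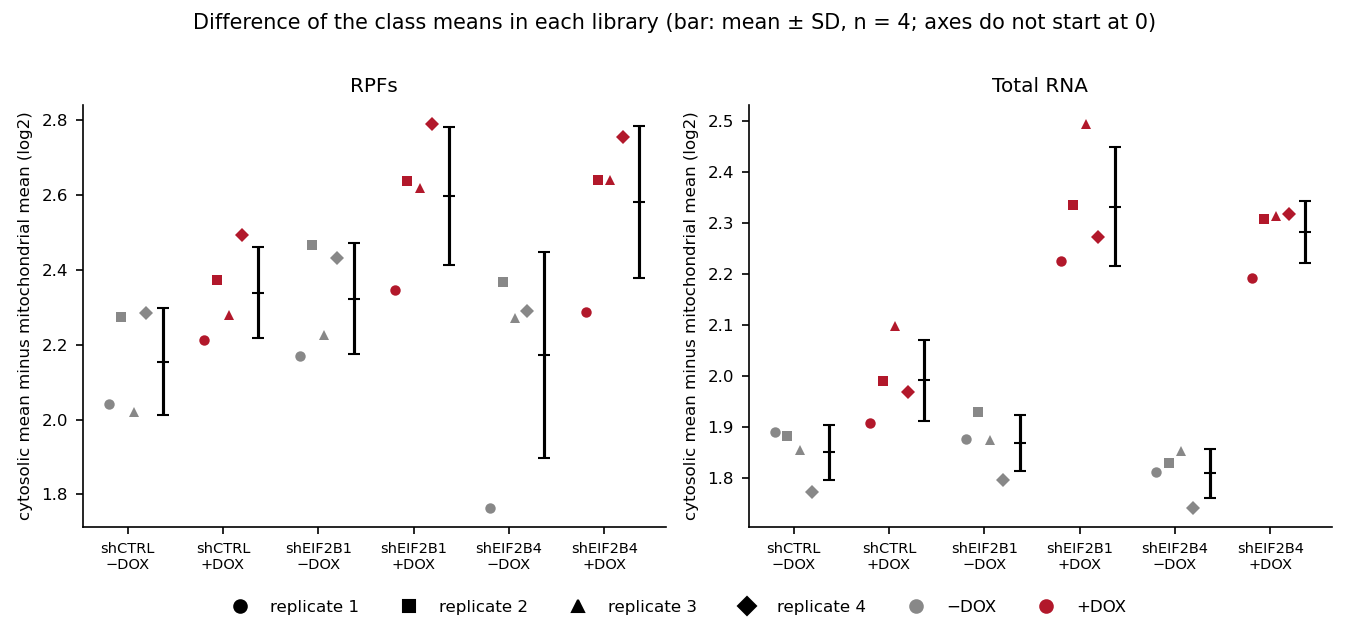
Mean of the 19 cytosolic genes minus mean of the 16 mitochondrial genes (y axis, log2) in each library of the 6 groups (x axis), in RPFs and total RNA, with symbols for the replicates, grey for -DOX, red for +DOX and mean ± SD (n = 4) beside them. In total RNA the 8 induced knockdown libraries lie between 2.19 and 2.49, above the others, and in RPFs replicate 1 of shEIF2B4 -DOX lies lowest at 1.76.

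Pairing the enzymes of the same amino acid gave 17 pairs of a cytosolic and a mitochondrial gene, in which EPRS1 (glutamyl and prolyl), FARSA and FARSB, and FARS2 enter through shared amino acids. The cytosolic gene had the higher total RNA response in 14 of 17 pairs after each knockdown, with median differences of 0.35 and 0.26. In RPFs it was higher in 12 and 14 of 17, with medians of 0.13 and 0.13. The widest pair in total RNA was tryptophan, with WARS1 at 0.84 and WARS2 at 0.072 after shEIF2B1 and at 0.97 and 0.050 after shEIF2B4. For isoleucine, IARS1 was at 0.49 and IARS2 at -0.20 after shEIF2B1. For histidine, HARS1 and HARS2 were at -0.17 each, within the limit on shared reads given above.

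The cytosolic class was also described by 3 groupings, chosen with earlier results of these data known and with no test run between them. Of the 13 genes commonly listed as ATF4 targets, 5 were called higher in total RNA after each knockdown. The background for total RNA rises was 2.34% of all genes under shEIF2B1 and 3.78% under shEIF2B4, for every grouping here. Among the listed genes, 12 and 13 had responses above 0, with medians of 0.30 after both. Of the 6 not so listed (FARSA, FARSB, HARS1, KARS1, QARS1 and RARS1), none was called in total RNA, and the medians were -0.057 and -0.039. In RPFs after shEIF2B1 the listed genes had 3 rises, no fall and a median of 0.19. The others had 2 falls, no value above 0 and a median of -0.25. The RPF background for shEIF2B1 was 12.0% rises and 15.3% falls among all genes. With so few genes per grouping, these RPF counts are not read as a contrast between groupings. The 7 enzymes of the multi-synthetase complex, an assembly of cytosolic synthetases, had 2 rises in total RNA after shEIF2B1 (IARS1 and MARS1) and a median of 0.11, where the other 12 cytosolic genes had 3 rises and a median of 0.17. In total RNA after shEIF2B4 the medians were 0.25 in the complex and 0.23 in the others. In RPFs after shEIF2B1 the complex had 1 rise and 1 fall (MARS1 and RARS1) and a median of -0.16, and the others a median of 0.13. A count of 1 of 7 in each direction is near the RPF background given above. By catalytic fold, EPRS1 (glutamyl and prolyl) was counted with class I only. After shEIF2B1, 9 of 10 class I enzymes and 4 of 9 class II enzymes had total RNA responses above 0. Their medians were 0.28 and -0.036, with 3 and 2 genes called higher. After shEIF2B4 these were 9 of 10 and 7 of 9 above 0, with medians of 0.25 and 0.066 and with 2 and 3 genes called higher.

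Synthetase RPFs already differed between lines without DOX. In uninduced shEIF2B1 against uninduced shCTRL, 14 members had higher RPFs (11 cytosolic, 3 mitochondrial), where 29.0% of all genes were called higher, and VARS1 and VARS2, the valyl enzymes, were lower, where 25.1% were. RARS1 was higher by 0.48, EPRS1 by 0.47, LARS1 by 0.43, FARSB by 0.41 and IARS2 by 0.32 (limma adjusted p between 0.000137 and 0.00175). No member was called in total RNA by limma in this comparison, where 1.40% of all genes were, and 6 had an unadjusted p under 0.05. In uninduced shEIF2B4, no member was called in total RNA by limma (2.32% of all genes, and 3 members with an unadjusted p under 0.05), and VARS1 and VARS2 were lower in RPFs by log2 differences of -0.42 and -0.40, where 12.4% of all genes were called lower. Values of that line lie lower as a whole, with a median of -0.13 over all genes in this RPF comparison, and both calls were lost when library medians were set equal. Without the library that stood apart, 12 members were called in this comparison, 3 higher where 13.1% of all genes were, and 9 lower where 34.5% of all genes were.

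The induced lines were also compared with induced shCTRL directly, a comparison added after the data were seen. For shEIF2B1, 8 cytosolic genes had higher RPFs, where 5.65% of all genes were called higher: WARS1 (0.96), IARS1 (0.60), GARS1 (0.54), CARS1 (0.44), EPRS1 (0.31), YARS1 (0.31), MARS1 (0.30) and SARS1 (0.29). No member was lower, where 4.81% of all genes were. All 8 are among the genes listed as ATF4 targets, which are 13 of the 19 cytosolic genes. That list was chosen with earlier results of these data known. RARS1, FARSB and IARS2, which were higher in uninduced shEIF2B1 and fell on induction, differed from induced shCTRL by -0.15, -0.17 and -0.095 and were not called. In total RNA 8 cytosolic genes were higher, where 4.94% of all genes were: WARS1 (0.88), IARS1 (0.59), GARS1 (0.59), SARS1 (0.58), MARS1 (0.52), CARS1 (0.49), YARS1 (0.33) and VARS1 (0.33). For shEIF2B4, 6 cytosolic genes had higher RPFs (4.09% of all genes), led by WARS1 at 0.97. QARS1 and 6 mitochondrial genes were lower (25.3% of all genes), from TARS2 at -0.27 to AARS2 at -0.47, where the median of all genes was -0.13. In total RNA 9 cytosolic genes were higher (10.9% of all genes). FARSB, QARS1 and 4 mitochondrial genes were lower (19.1% of all genes), from -0.16 to -0.44 with TARS2 lowest, where the median of all genes was -0.038.

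The RPF and TE responses of the members, and their RPF differences between uninduced lines, moved with GC3. A coding sequence was matched for 33 members, with a median GC3 of 60.1% (36.6 to 81.1%) in the cytosolic and 57.7% (35.99 to 76.3%) in the mitochondrial class, against 59.7% over all genes. RARS1, FARSB, IARS2, EPRS1 and LARS1 lie low, at 39.1%, 37.7%, 40.2%, 36.6% and 40.9%, while WARS1 and SARS1 are at 64.3% and 63.6%. Across the 33 genes, the difference between uninduced shEIF2B1 and uninduced shCTRL in RPFs had a Pearson r of -0.87 with GC3, and across 10847 genes -0.79. For the RPF response to shEIF2B1 r was 0.49 over members and 0.61 over all genes. For the TE response it was 0.63 and 0.62, and for that to shEIF2B4 0.84 and 0.71. In total RNA, r of the response to shEIF2B1 was 0.039 over members, and over all genes 0.22. For induced shEIF2B1 minus induced shCTRL, r was -0.094 in RPFs and -0.19 in TE over members. Over all genes it was -0.066 and -0.26. For TE and total RNA, all genes here means 10548 genes. Genes share libraries and are not independent replicates, so these are descriptions. Of the 10 members with GC3 under 50%, 9 had an RPF response to shEIF2B1 below 0, with a median of -0.18, against 10 of the other 23, with a median of 0.062. Over all genes these medians were -0.28 and 0.11.

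With the GC3 trend removed from each library, which leaves out GARS1 and VARS2 for want of a matched sequence, WARS1 (0.71), IARS1 (0.50), CARS1 (0.37) and MARS1 (0.35) had higher RPFs after shEIF2B1, where 4.86% of all genes were. No member was called lower, where 6.05% of all genes were: RARS1, FARSB and IARS2 were then at -0.37, -0.30 and -0.17. After shEIF2B4, WARS1 and CARS1 remained called in RPFs at 0.96 and 0.49, where 1.37% of all genes were called higher. No member was called in TE by limma, against 0.417% of all genes after shEIF2B1 and 0.0474% after shEIF2B4, and 4 and 1 of 33 members had an unadjusted p under 0.05. In total RNA, WARS1, IARS1, SARS1 and MARS1 were called higher after shEIF2B1, where 3.29% of all genes were. After shEIF2B4, CARS1 joined WARS1, IARS1, TARS1 and SARS1 among the rises, where 3.88% of all genes rose, and TARS2 was lower, where 1.69% of all genes were.

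The shCTRL line itself changed on induction. In total RNA EPRS1 (0.30), LARS1 (0.29) and WARS1 (0.26) rose, each in 4 of 4 weeks, where 2.27% of all genes were called higher. In RPFs LARS1 rose by 0.36 and the mitochondrial seryl enzyme gene SARS2 fell by 0.44, 2 of 35 members where 9.85% of all genes were called in either direction. All 13 listed ATF4 targets had total RNA changes above 0 in shCTRL, with a median of 0.22. Of the cytosolic genes not so listed, QARS1 changed by 0.28, and the others ran from RARS1 at -0.018 to FARSA at -0.22. The shCTRL changes are subtracted in every response given above.

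Among 14 other genes of tRNA charging, 13 were measured in RPFs and 14 in total RNA. They include the scaffold proteins AIMP1, AIMP2 and EEF1E1 of the multi-synthetase complex, and mitochondrial amidotransferase subunits. In total RNA none was called by limma after either knockdown, and 2 and 1 of 14 had an unadjusted p under 0.05. In RPFs after shEIF2B1, AIMP1 (-0.51) and EEF1E1 (-0.42) fell, 2 of 13 where 15.3% of all genes were called lower, and GATC (0.33) and DTD1 (0.30) rose, 2 of 13 where 12.0% of all genes were called higher. GATC encodes an amidotransferase subunit, and DTD1 a deacylase that removes D-amino acids from tRNA. After shEIF2B4 SEPSECS, an enzyme of selenocysteine synthesis on its tRNA, fell by 0.64, 1 of 13 where 0.870% of all genes were called lower.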

How the data were processed

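RPFs and total cytoplasmic RNA were measured in SW480 lysates. The authors trimmed reads (cutadapt 1.18, per the submitters' processing notes) and removed duplicates, quantified total RNA with Bowtie2 and RSEM, aligned RPFs free of rRNA, tRNA and mitochondrial RNA to the most abundant transcript of each gene, and deposited regularised log2 values (DESeq2), separately for each assay. Read totals are not given, so no counting error can be stated. Groups and replicate numbers come from the labels. The authors ran the replicates in separate weeks, and each replicate number was taken as 1 week. Replicate 3 joins 2 sequencing runs.

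Responses were fitted with limma 3.58.1 in R 4.3.3 (lmFit, eBayes with trend; week, line, DOX and their interaction; 16 libraries), two-sided, and tested on simulated data. Weeks pair the libraries: 52 of 60 same-week pairs in RPFs and 37 of 60 in total RNA had a correlation over 0.1 once group means were removed. Members and lists were chosen with earlier results of these data known. Named with all values were the 3 largest called responses to shEIF2B1 per class in RPFs and in total RNA. Other called members are named with their responses, and members that were not called by their range. Coding sequences came from GENCODE v29, an earlier release than the authors' one, matched by transcript without version, and promoters from RefSeq. Lists were described by counts and medians. Alternatives were no block, no trend, the lowest 25% of genes left out, median centring, a joint fit of 24 libraries, omission of the shCTRL term, adjusted p under 0.05, and each week left out. After seeing the data, GC3 removal, induced groups alone and omission of 1 library were added. One gene of the list of other tRNA charging genes is not reported here.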

Additional observations from a re-analysis of the deposited data

Results flagged for a closer look

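Among 90 groups of 4 libraries tested for a sample far from the others, 5 passed Dixon's 95% limit, about as many as the 1 in 20 that chance gives. RARS1 RPFs in replicate 1 of shEIF2B4 -DOX were 7.99, against 9.68 to 9.88 in the other 3. In the same library the cytosolic minus mitochondrial mean was 1.76, against 2.27 to 2.37. This is the RPF library that stood apart over all genes. GARS1 RPFs in replicate 1 of shEIF2B1 +DOX were 11.41, against 11.77 to 11.81. FARSB total RNA in replicate 3 of shEIF2B1 -DOX was 9.81, against 9.76 to 9.77, a gap of little size. The cytosolic minus mitochondrial mean in total RNA of shEIF2B4 +DOX was 2.19 in replicate 1, against 2.31 to 2.32.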

How the results depend on the processing

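The number of members called depended on the fit. With no replicate block, so that the pairing by week was ignored, it went from 6 to 1 (RPFs, shEIF2B1), 2 to 1 (RPFs, shEIF2B4), 5 to 1 and 6 to 5 (total RNA, shEIF2B1 and shEIF2B4), 2 to 0 (TE, shEIF2B1), 2 to 0 and 3 to 0 (shCTRL change, RPFs and total RNA), and 16 to 0 and 2 to 0 (uninduced shEIF2B1 and shEIF2B4, RPFs). Without the shCTRL correction RPFs gave 20 and 16, total RNA 22 and 16, and TE 8 and 1 for shEIF2B1 and shEIF2B4. With a week or the library that stood apart left out, RPF counts ranged from 3 to 5 (shEIF2B1) and 1 to 7 (shEIF2B4), total RNA counts from 1 to 5 and 2 to 6, and TE counts from 0 to 3 and 0 to 5. The shCTRL change ranged from 0 to 14 (RPFs) and 0 to 9 (total RNA), uninduced shEIF2B1 from 12 to 14 (RPFs), and uninduced shEIF2B4 from 0 to 12 (RPFs) and 0 to 1 (total RNA). For shCTRL, 14 in RPFs and 9 in total RNA came without replicate 1. Induced groups alone gave 13 in RPFs for shEIF2B4, 8 and 15 in total RNA, and 0 in TE for shEIF2B1. At an adjusted p under 0.05 the count was 1 in total RNA for shEIF2B1, and 0 in TE for shEIF2B1, for the shCTRL change in both assays and for uninduced shEIF2B4 in RPFs. GC3 removal gave 0 in TE for shEIF2B1, 1 for the shCTRL change in RPFs, and 5 and 1 for the uninduced lines in RPFs. With all 24 libraries in one fit it was 4 (RPFs, shEIF2B4), 0 (TE, shEIF2B1) and 9 (uninduced shEIF2B4, RPFs). With no trend it was 1 (TE, shEIF2B1) and 1 (shCTRL, total RNA), with centring 1 (TE, shEIF2B1) and 0 (uninduced shEIF2B4, RPFs), and with the lowest 25% of genes left out 4 (shCTRL, RPFs) and 0 (uninduced shEIF2B4, RPFs). The cause of these moves was not tested. The share of all genes called also moved with the fit. In RPFs after shEIF2B4 it went from 2.75% to 17.9% without the library that stood apart. The counts in this paragraph are given without such shares, so they are not read as particular to the synthetases. The cytosolic minus mitochondrial response without the shCTRL correction was 0.27 (RPFs, shEIF2B1), 0.41 (RPFs, shEIF2B4), 0.46 (total RNA, shEIF2B1) and 0.47 (total RNA, shEIF2B4). With medians over member levels in each library it was 0.24 and 0.11 in total RNA. In TE it was -0.086 for shEIF2B1. For shEIF2B4 it turned to -0.046 in RPFs and 0.034 in TE.

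Of 273 refits of 21 single-gene calls, 195 kept the call, 78 lost it and 0 changed direction. WARS1 kept its 4 calls in every refit. Depth is unknown, and the shrinkage of low values bears most on the weakly expressed mitochondrial genes.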
